A study of Homo sapiens with 12 samples.

Results

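The genes described here encode the proteins of the mitochondrial ribosome. They were taken as every protein-coding gene whose symbol is MRPL or MRPS, a number and at most 1 further letter, which gave 78 of the 58735 genes measured. Of these, 49 carried the MRPL symbol of the large subunit and 29 the MRPS symbol of the small subunit. All 78 had enough counts to be tested, among 15378 genes tested. RNA was sequenced from 12 libraries of Ovcar8, an established cell line of high-grade serous ovarian cancer, in 4 groups of 3. The groups were CCNE1 overexpression with a first short hairpin RNA against TMLHE (shTMLHE 1), CCNE1 overexpression with a second hairpin (shTMLHE 2), CCNE1 overexpression alone (CCNE1), and control. All cells had been transduced with lentivirus and selected with puromycin, per the labels' protocols, and what the control virus carried is not given there. CCNE1 encodes cyclin E1, a partner of CDK2 at the start of DNA replication, and TMLHE encodes the first enzyme of carnitine synthesis, which uses alpha-ketoglutarate. The design asks what CCNE1 overexpression does against control, and what each hairpin does against CCNE1 overexpression.

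Mitochondria keep a ribosome of their own, which translates the few messenger RNAs of the mitochondrial genome, all for subunits of the respiratory chain and ATP synthase. Its ribosomal RNAs come from mitochondrial DNA, but every protein of it is encoded in the nucleus, made in the cytosol and imported. Some of these proteins have relatives in bacterial ribosomes, and the others are found in mitochondria only.

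The libraries held 14054101 to 21457503 counts in total, and the lowest count of any member in any library was 7. Levels are given as CPM, the count of a gene scaled by the size of its library, after TMM scaling, which sets the library sizes so that the typical gene does not differ between libraries. CCNE1 averaged 1269 CPM with shTMLHE 1, 847 CPM with shTMLHE 2 and 1001 CPM in CCNE1 libraries, against 33.1 CPM in control libraries. TMLHE averaged 0.956 CPM with shTMLHE 1 and 0.482 CPM with shTMLHE 2, against 15.7 CPM in CCNE1 and 16.5 CPM in control libraries. Of the epithelial ovarian markers, PAX8, KRT7, KRT8 and KRT18 were at 68.6 CPM or above in every library, EPCAM and WT1 stayed at or below 4.13 CPM, and MUC16 was at 0. The 7 epithelial markers summed to 5979 to 6209 CPM with shTMLHE 1, 4172 to 4268 CPM with shTMLHE 2, 7831 to 7924 CPM in CCNE1 and 4614 to 4677 CPM in control libraries. The 4 leukocyte markers summed to at most 2.86 CPM and the 3 endothelial markers to at most 2.83 CPM in any library. The 4 fibroblast markers summed to 1501 to 1590 CPM with shTMLHE 1, 1215 to 1255 CPM with shTMLHE 2, 591 to 623 CPM in CCNE1 and 852 to 925 CPM in control libraries, nearly all of it COL1A1, with DCN at 0. The part of these differences in the results that follow was not tested.

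The mitochondrial ribosomal protein genes took a smaller part of the RNA in both hairpin groups. Their summed level was 3809, 3839 and 3975 CPM with shTMLHE 1 and 3423, 3444 and 3365 CPM with shTMLHE 2, against 6567, 6534 and 6510 CPM in CCNE1 libraries and 6347, 6327 and 6272 CPM in control libraries. No hairpin library reached any CCNE1 or control library, and the CCNE1 libraries lay above all 3 control libraries. As an unscaled share of all counts, the 78 genes made up 0.431 ± 0.00681% with shTMLHE 1 and 0.417 ± 0.00551% with shTMLHE 2, against 0.555 ± 0.001% in CCNE1 and 0.544 ± 0.00451% in control libraries (SD, n = 3 each). These are shares of bulk RNA, in which fewer cells of a kind and less RNA per cell cannot be told apart. The share of cytosolic ribosomal protein genes moved in the same direction, at 8.61 ± 0.2% with shTMLHE 1 and 8.93 ± 0.0693% with shTMLHE 2, against 16.6 ± 0.231% in CCNE1 and 15 ± 0.3% in control libraries.

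Gene by gene, 59 of the 78 fell with shTMLHE 1 against CCNE1 libraries and 3 rose, where 30.3% of all genes tested were called lower and 30.4% higher (adjusted p under 0.05 by the edgeR quasi-likelihood test). Nothing in the labels says that the replicates of a group are separate cultures, so these p-values measure only the spread between the libraries. With shTMLHE 2, 59 fell and 10 rose, where 36.2% of all genes were called lower and 36.8% higher. The members' median log2 fold change was -0.59 with shTMLHE 1 and -0.78 with shTMLHE 2, where the median of all genes was 0.03 in both comparisons.

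**Figure D1:**
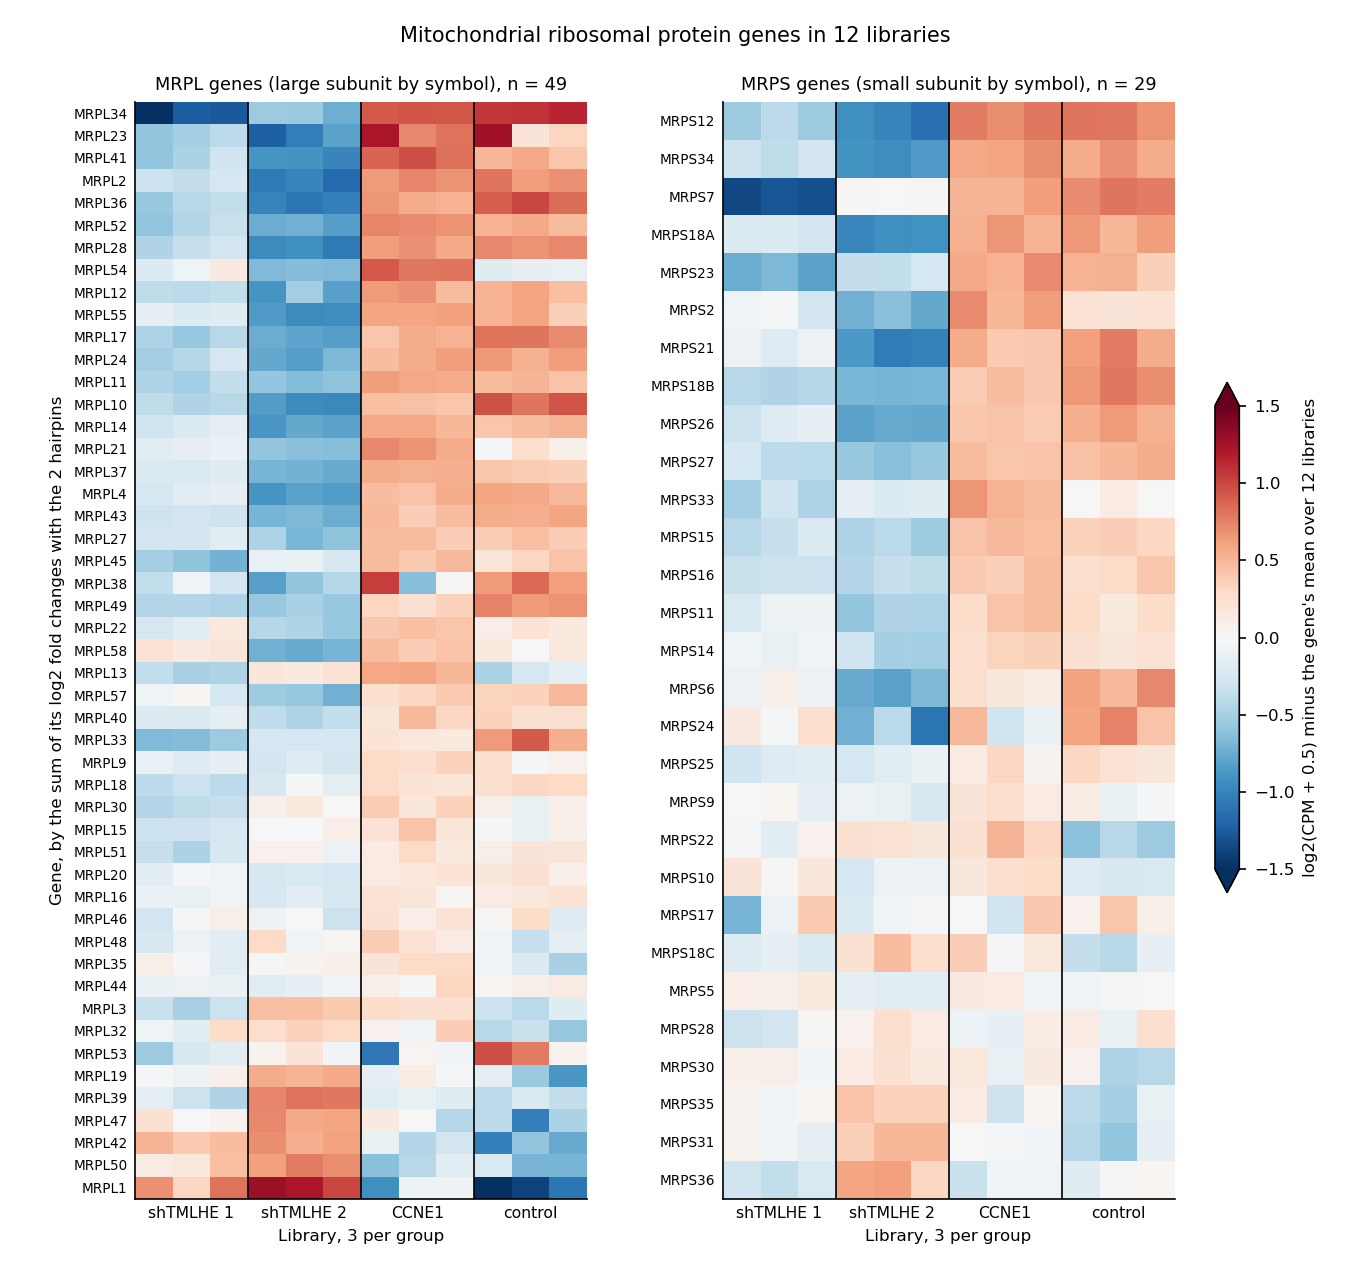
Level of each of the 78 genes in each library, as log2(CPM + 0.5) minus the gene's mean over the 12 libraries, with MRPL genes left and MRPS genes right. Columns are libraries, 3 per group, and rows run by the sum of the log2 fold changes with the 2 hairpins. Most rows are below their mean in the hairpin libraries and above it in CCNE1 and control libraries, and the bottom rows, led by MRPL1, run the other way.

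In 55 of the 78 genes the fall passed the test with both hairpins, where 23.6% of all genes did so. The 2 comparisons share the 3 CCNE1 libraries. The size of the fall depends on the scaling, since the TMM factors were 1.107 to 1.228 in hairpin libraries and 0.847 to 0.864 in CCNE1 and control libraries. Scaled to total counts instead, 14 members rose and 42 fell with shTMLHE 1, where 51% of all genes rose and 16.2% fell. With shTMLHE 2 on that scale 26 rose and 40 fell, where 54.1% of all genes rose and 22.4% fell. The members' medians were then -0.20 and -0.25, against 0.43 and 0.56 for all genes, and 33 members fell with both hairpins, where 11.8% of all genes did.

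The genes that fell furthest with shTMLHE 1 were, in order, MRPL34, MRPS7, MRPL23, MRPS23, MRPL41, MRPS12, MRPL52 and MRPL45. MRPL34, a large subunit protein with a bacterial relative, had 6.25, 9.18 and 9.02 CPM with shTMLHE 1 and 15.1, 15 and 13.2 CPM with shTMLHE 2, against 42.5, 43.1 and 42.8 CPM in CCNE1 and 46.9, 47.6 and 49.8 CPM in control libraries. Every hairpin library was far under every other library, and shTMLHE 1 was the lower of the 2. The log2 fold change was -2.40 (SE 0.11, edgeR adjusted p = 2.24e-21) with shTMLHE 1 and -1.56 (SE 0.10, edgeR adjusted p = 3.11e-17) with shTMLHE 2.

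MRPS12, the small subunit protein that in bacteria lies at the decoding centre, had 37.3, 41.2 and 36.9 CPM with shTMLHE 1 and 28.3, 26.8 and 24.6 CPM with shTMLHE 2, against 92.6, 88.2 and 94.3 CPM in CCNE1 and 95.3, 94.0 and 86.6 CPM in control libraries. The CCNE1 and control libraries overlapped, and all hairpin libraries lay below them. It fell by 1.25 on the log2 scale (SE 0.07, edgeR adjusted p = 1.94e-19) with shTMLHE 1 and by 1.78 (SE 0.07, edgeR adjusted p = 1.78e-24) with shTMLHE 2. MRPL45, which helps to hold the ribosome at the inner membrane, fell by 1.06 with shTMLHE 1 and by 0.60 with shTMLHE 2, and the mitochondria-specific small subunit protein MRPS23 fell (-1.35 and -0.94).

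With shTMLHE 2 the furthest falls were those of MRPL23, MRPL41, MRPS12, MRPL2, MRPL36, MRPL28, MRPL34 and MRPS18A. MRPL41, a mitochondria-specific large subunit protein, had 70.0, 76.4 and 86.1 CPM with shTMLHE 1 and 57.3, 56.6 and 52.9 CPM with shTMLHE 2, against 194, 207 and 188 CPM in CCNE1 and 150, 157 and 142 CPM in control libraries. The 4 groups did not overlap, with CCNE1 highest and shTMLHE 2 lowest. Its log2 fold change was -1.34 with shTMLHE 1 and -1.82 with shTMLHE 2 (SE 0.06 in both). MRPL41 had the most GC-rich transcript of the 78, at 71.9%, and with an offset for GC content and length its value with shTMLHE 2 became -0.06 and no longer passed.

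MRPL2, whose bacterial relative is needed at the peptidyl transferase centre, fell by 1.00 with shTMLHE 1 and by 1.76 with shTMLHE 2. MRPL28 and MRPL36, both with bacterial relatives, fell (-0.99 and -1.06) with shTMLHE 1 and (-1.61 and -1.68) with shTMLHE 2. In the fit with the offset for GC content and length, the shTMLHE 2 values were -1.13 for MRPL2, -0.45 for MRPL28 and -0.22 for MRPL36, and that of MRPL36 no longer passed. In the same fit MRPL34 had -0.88, MRPS12 -0.84 and MRPS18A -0.67 with shTMLHE 2, all still called. MRPL23, which in bacteria sits at the exit of the peptide tunnel, was uneven in the CCNE1 and control groups. It had 21, 22.2 and 23.9 CPM with shTMLHE 1 and 13.2, 15.1 and 17.8 CPM with shTMLHE 2, against 74.1, 52.5 and 55.8 CPM in CCNE1 and 76.5, 36.2 and 39.4 CPM in control libraries. The first replicate stood above the others in both of the last 2 groups, and the hairpin libraries lay below all of them. Its log2 fold change was -1.44 (SE 0.29, edgeR adjusted p = 0.00227) with shTMLHE 1 and -1.99 (SE 0.30, edgeR adjusted p = 0.000256) with shTMLHE 2. In the fit with the offset the values were -0.81 (edgeR adjusted p = 0.0455) and -0.80 (edgeR adjusted p = 0.0465), both close to the threshold.

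MRPL1, MRPL42 and MRPL50 rose with both hairpins, where 23.2% of all genes did so. MRPL1 belongs to the stalk through which spent transfer RNA leaves the ribosome. It had 7.67, 5.81 and 8.41 CPM with shTMLHE 1 and 11.9, 11.3 and 9.65 CPM with shTMLHE 2, against 2.17, 4.29 and 4.31 CPM in CCNE1 and 0.976, 1.43 and 1.9 CPM in control libraries. The 4 groups did not overlap, and control was lowest. The log2 fold change was 1.00 with shTMLHE 1 (SE 0.22, edgeR adjusted p = 0.000191) and 1.59 with shTMLHE 2 (SE 0.22, edgeR adjusted p = 3.05e-08). With the offset for GC content and length MRPL1 kept its rise, at 0.87 and 0.95. The mitochondria-specific MRPL42 rose by 0.75 and 0.92 and MRPL50 by 0.69 and 1.16 with shTMLHE 1 and shTMLHE 2. With the offset MRPL42 had -0.22, which did not pass, and -0.60, which was called lower. MRPL50 then had -0.01 and -0.14, neither of which passed.

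**Figure D2:**
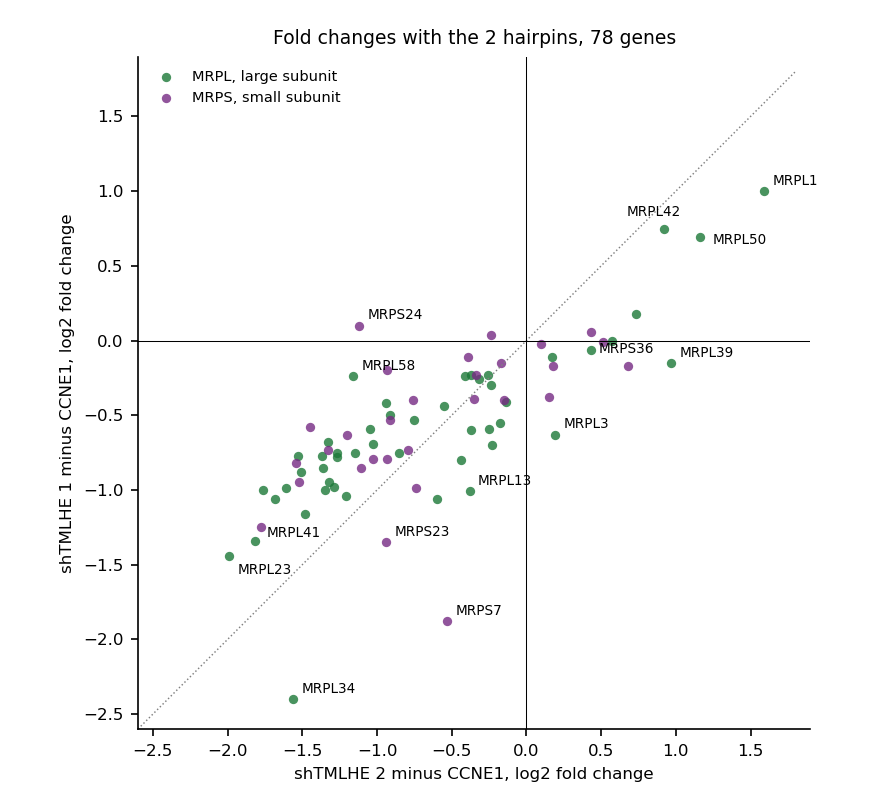
Log2 fold change against CCNE1 libraries with shTMLHE 1 (vertical) and with shTMLHE 2 (horizontal) for the 78 genes, MRPL in green and MRPS in purple, with the dotted line marking equal values. Both axes use the same 3 CCNE1 libraries. Most points lie in the lower left, MRPL1, MRPL42 and MRPL50 in the upper right, and MRPL34 and MRPS7 far below the line.

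The hairpins were also compared with each other, which uses no CCNE1 library. Against shTMLHE 2, 38 of the 78 genes were higher with shTMLHE 1 and 25 were lower, where 31.3% of all genes were called higher and 29% lower by edgeR. With the offset for GC content and length 29 were higher and 11 lower, where 25% and 23.2% of all genes were. Of the 55 genes that fell with both hairpins, 35 were lower with shTMLHE 2 than with shTMLHE 1 and 11 were lower with shTMLHE 1. Among all genes tested, 3636 fell with both hairpins. Of these, 2200 were lower with shTMLHE 2 and 429 with shTMLHE 1, which is 14.3% and 2.79% of all genes tested. MRPS7, a small subunit protein with a bacterial relative, showed the largest difference between the hairpins. It had 40.1, 42.2 and 41.0 CPM with shTMLHE 1 and 105, 104 and 105 CPM with shTMLHE 2, against 147, 147 and 160 CPM in CCNE1 and 169, 180 and 176 CPM in control libraries. All 4 groups stood apart, with shTMLHE 1 at the bottom. The log2 fold change of shTMLHE 1 over shTMLHE 2 was -1.35 (SE 0.05, edgeR adjusted p = 1.40e-23), and against CCNE1 it was -1.88 with shTMLHE 1 and -0.53 with shTMLHE 2.

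MRPL3, a large subunit protein with a bacterial relative, was the 1 gene called in opposite directions with the 2 hairpins, where 5.81% of all genes were. It had 70.4, 63.2 and 70.8 CPM with shTMLHE 1 and 121, 121 and 117 CPM with shTMLHE 2, against 107, 104 and 105 CPM in CCNE1 and 71.5, 66.9 and 78.2 CPM in control libraries. The shTMLHE 1 libraries overlapped the control libraries, and the shTMLHE 2 libraries lay above all others. The log2 fold change was -0.63 (SE 0.06, edgeR adjusted p = 1.30e-12) with shTMLHE 1 and 0.19 (SE 0.05, edgeR adjusted p = 0.00201) with shTMLHE 2. With the offset for GC content and length the value with shTMLHE 2 was -0.16, so its direction turned.

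MRPL39, a mitochondria-specific large subunit protein, rose with shTMLHE 2, at 18.7, 19.8 and 19.5 CPM against 9.71, 10.2 and 9.63 CPM in CCNE1 libraries. With shTMLHE 1 it had 10.0, 8.68 and 7.93 CPM, which overlapped the CCNE1 libraries, and its log2 fold change of -0.15 did not pass. The difference between the hairpins was itself called, at -1.12 (SE 0.13, edgeR adjusted p = 1.11e-09). In the other direction MRPL58, the hydrolase that frees peptides from stalled ribosomes, was 0.92 higher on the log2 scale with shTMLHE 1 than with shTMLHE 2 (SE 0.07, edgeR adjusted p = 7.42e-14). MRPS21 was 0.87 and MRPL2 0.76 higher in the same comparison.

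The large subunit genes fell further than the small subunit genes with shTMLHE 1 by the median, at -0.68 and -0.40, and the gap was -0.28. With shTMLHE 2 the medians were -0.85 and -0.76. Of the 49 MRPL genes, 39 fell with shTMLHE 1 and 38 with shTMLHE 2, which is 79.6% and 77.6%. Of the 29 MRPS genes, 20 and 21 fell, which is 69% and 72.4%. No MRPS gene rose with shTMLHE 1. No test is attached to the gap, since genes are not replicates, and with 1 library left out at a time it lay between -0.28 and -0.19 with shTMLHE 1. The gap turned round with the offset for GC content and length, to 0.15 with shTMLHE 1 and 0.31 with shTMLHE 2, where the MRPL medians were -0.41 and -0.45 and the MRPS medians -0.56 and -0.77. MRPL transcripts had a median GC content of 50.7% and MRPS transcripts of 46.8%.

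**Figure D3:**
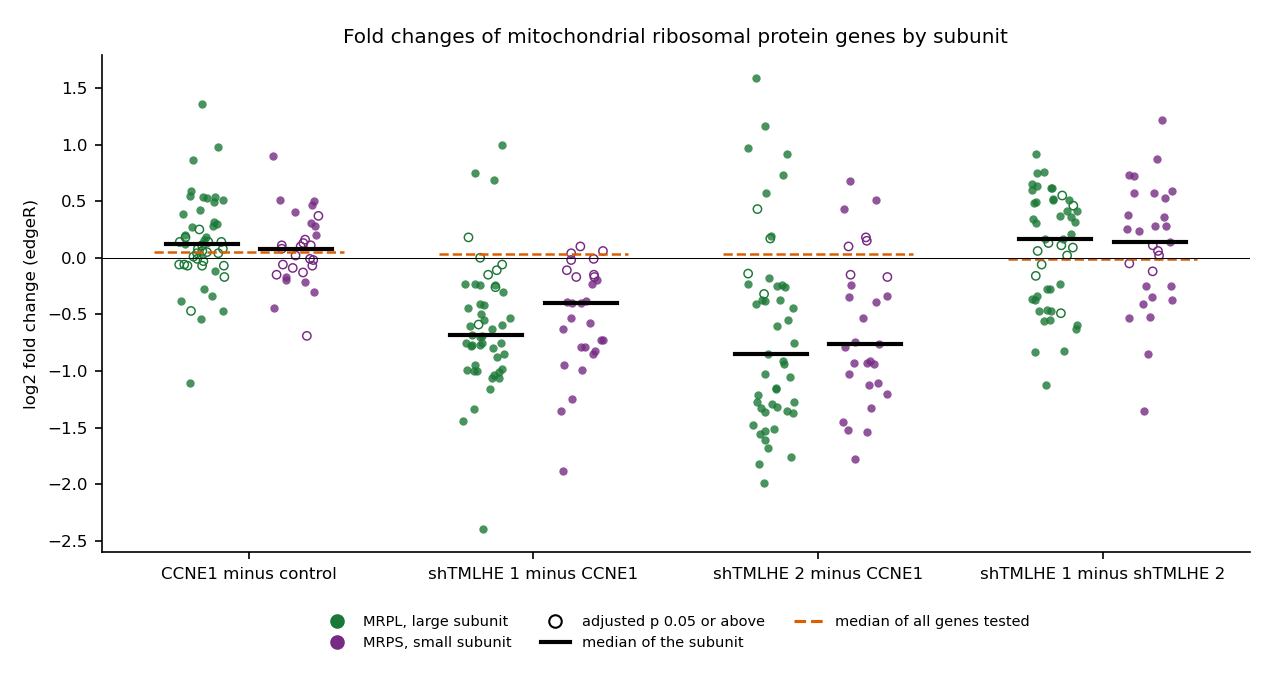
Log2 fold change of each gene in the 4 comparisons, MRPL left and MRPS right in each, with filled points for genes called at adjusted p under 0.05. Black bars are the medians of the subunits and the dashed line is the median of all 15378 genes tested. The medians lie between -0.40 and -0.85 in the comparisons of a hairpin with CCNE1 and between 0.08 and 0.17 in the others.

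Set side by side per length, the sums of both subunits were lower in both hairpin groups than in CCNE1 and control libraries. Summed CPM per kilobase was 1163 ± 42.4 for MRPL and 548 ± 3.21 for MRPS genes with shTMLHE 1, and 1004 ± 16.2 and 466 ± 2.52 with shTMLHE 2. It was 2026 ± 27.8 and 917 ± 12.9 in CCNE1 libraries, and 1892 ± 15.5 and 924 ± 17.2 in control libraries (SD, n = 3 each). The ratio of the 2 sums was 2.12 ± 0.0624 with shTMLHE 1 and 2.15 ± 0.0208 with shTMLHE 2, against 2.21 ± 0.0608 in CCNE1 and 2.05 ± 0.0458 in control libraries. The shTMLHE 1 libraries overlapped both the CCNE1 and the control libraries in this ratio. All CCNE1 libraries (2.14 to 2.25) and all shTMLHE 2 libraries (2.13 to 2.17) lay above the control libraries (2.01 to 2.1). Between CCNE1 and control the MRPL sums stood apart, with CCNE1 higher, and the MRPS sums overlapped.

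Symbols do not always match the subunit. MRPS30 and MRPS18A are built into the large subunit, and MRPS36 is now known as a component of the alpha-ketoglutarate dehydrogenase complex and is in neither. By place, 40 of 51 large subunit genes and 19 of 26 small subunit genes fell with shTMLHE 1, and 39 and 20 fell with shTMLHE 2. The gap of the medians with shTMLHE 1 was -0.21 in that split. MRPS36 had 8.93, 8.46 and 9.44 CPM with shTMLHE 1 and 17.0, 17.3 and 13.9 CPM with shTMLHE 2, against 8.74, 10.7 and 10.6 CPM in CCNE1 and 9.76, 10.9 and 11.4 CPM in control libraries. Only the shTMLHE 2 libraries stood apart, and its log2 fold change there was 0.68 (SE 0.14, edgeR adjusted p = 3.17e-05), or -0.33 with the offset for GC content and length. MRPS30 did not pass with either hairpin, at -0.02 and 0.10, but was called lower with both in the fit with the offset (-0.85 and -1.35). Of the 3 genes named after bacterial S18, MRPS18A fell (-0.82 and -1.54) and MRPS18B (-0.85 and -1.11) with shTMLHE 1 and shTMLHE 2. MRPS18C, which shares 40.2% of its exon bases with the gene ABRAXAS1, had values of -0.38 and 0.15, and its call with shTMLHE 1 (edgeR adjusted p = 0.0461) was lost when the first CCNE1 library was left out (-0.27, edgeR adjusted p = 0.199) and in several other such fits.

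Genes of both kinds fell, those for proteins that take the place of a bacterial one and those for mitochondria-specific proteins, which here include MRPS18A and MRPS18B. With shTMLHE 1, 26 of 30 large subunit genes of bacterial kind fell (median -0.73), and 14 of 21 mitochondria-specific ones did (median -0.53). In the small subunit 11 of 16 of bacterial kind fell (median -0.39), and 8 of 10 mitochondria-specific ones did (median -0.71). With shTMLHE 2 the counts were 25 of 30, 14 of 21, 13 of 16 and 7 of 10.

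The comparison of CCNE1 overexpression with control had more rises than falls among these genes. In CCNE1 libraries 28 rose and 12 fell against control libraries, where 25.1% of all genes were called higher and 19.1% lower by edgeR. The median was 0.10, where that of all genes was 0.05. MRPL genes had 20 rises and 7 falls and MRPS genes 8 and 5. MRPL1 again rose furthest, by 1.36 (SE 0.29, edgeR adjusted p = 0.000165). It was followed by MRPL54, MRPS22 and MRPL13. With the offset for GC content and length MRPL1 had 1.01, MRPL54 1.15, MRPS22 0.60 and MRPL13 0.43, all still called. Of the 28 rises, 16 were among the 26 members with the most AT-rich transcripts, from 33.5% to 44.1% GC. In that range 44.3% of other genes rose, and the median was 0.34 for members and 0.37 for other genes.

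MRPL54, a mitochondria-specific large subunit protein, had 55.0, 60.7 and 69.5 CPM with shTMLHE 1, 39.7, 40.3 and 39.9 CPM with shTMLHE 2 and 120, 110 and 111 CPM in CCNE1 libraries, against 55.8, 58.0 and 58.7 CPM in control libraries. The CCNE1 libraries stood above all others, and the shTMLHE 1 libraries overlapped control. The log2 fold change of CCNE1 over control was 0.98 (SE 0.07, edgeR adjusted p = 2.91e-15). MRPL13, a large subunit protein with a bacterial relative, had 25.3, 23.3 and 23.7 CPM with shTMLHE 1, 37.1, 36.5 and 38.2 CPM with shTMLHE 2 and 49.3, 49.8 and 46.5 CPM in CCNE1 libraries, against 23.6, 27.5 and 29.6 CPM in control libraries, and the rise with CCNE1 was 0.86 on the log2 scale (SE 0.08, adjusted p = 1.02e-10 by edgeR). The shTMLHE 1 libraries overlapped control, and the shTMLHE 2 libraries lay between CCNE1 and control. The mitochondria-specific small subunit gene MRPS22 had 32.9, 40.1 and 34.9 CPM in CCNE1 libraries against 18.1, 20.8 and 19.0 CPM in control libraries.

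Genes lower in CCNE1 libraries included MRPL33, MRPL10, MRPS6, MRPL49, MRPL36, MRPS18B and MRPL17. MRPL10, at the base of the stalk that recruits translation factors, had 66.2, 63.0 and 64.8 CPM with shTMLHE 1, 48.1, 44.2 and 44.0 CPM with shTMLHE 2 and 118, 117 and 115 CPM in CCNE1 libraries, against 168, 151 and 167 CPM in control libraries. Here each of the 3 overexpressing groups lay below control. Its log2 fold change of CCNE1 over control was -0.47 (SE 0.05, edgeR adjusted p = 7.51e-10). MRPL53 had the lowest value, -1.11 (SE 0.36, edgeR adjusted p = 0.0112), from 0.672, 2.04 and 1.9 CPM in CCNE1 against 4.32, 3.73 and 2.07 CPM in control libraries. It shares 45.2% of its exon bases with CCDC142, and the call was lost without the first CCNE1 library (-0.78, edgeR adjusted p = 0.0736) and without the first control library (-0.89, edgeR adjusted p = 0.0831).

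**Figure D4:**
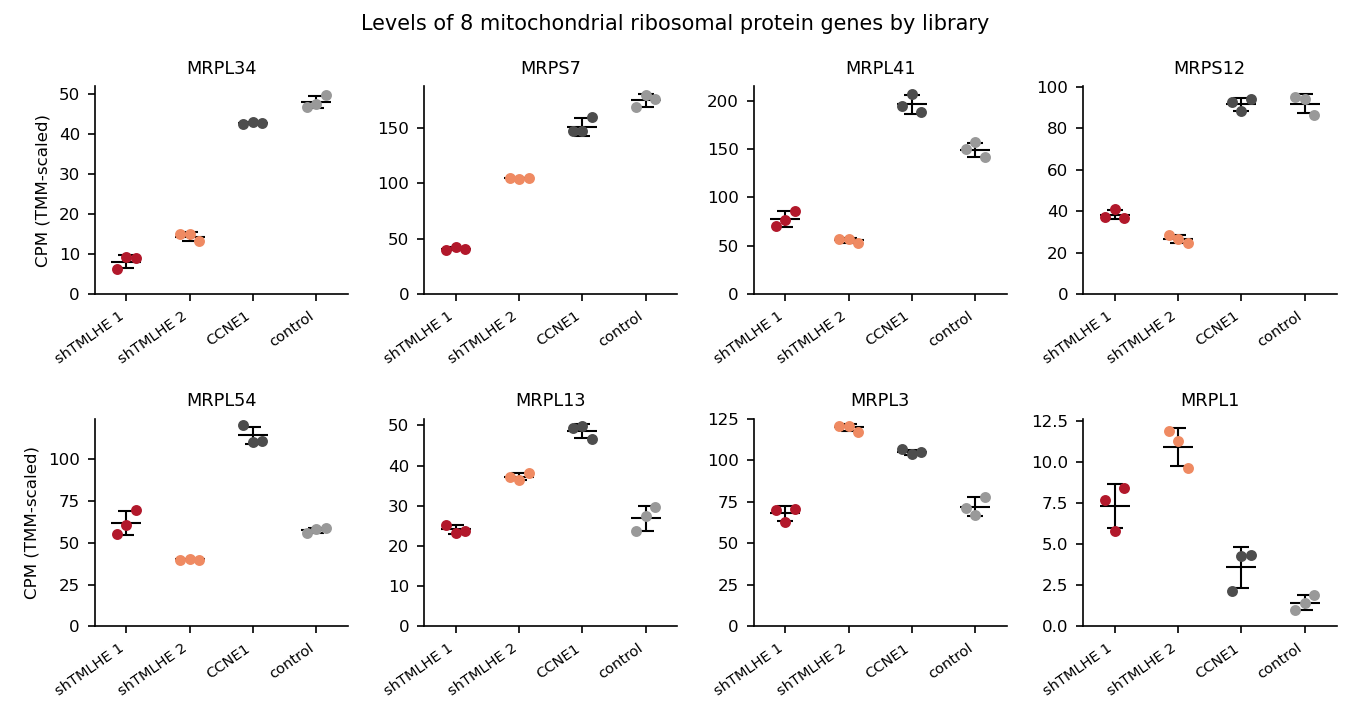
CPM of 8 genes in each library, with the groups in the order shTMLHE 1, shTMLHE 2, CCNE1 and control, and with bars for the mean and SD of 3 libraries. MRPL34, MRPS7, MRPL41 and MRPS12 are lowest in the hairpin groups, MRPL54 and MRPL13 highest in CCNE1, MRPL3 highest with shTMLHE 2, and MRPL1 above both other groups with either hairpin.

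In 16 genes a rise with CCNE1 overexpression met a fall with both hairpins. These were MRPL9, MRPL11, MRPL13, MRPL15, MRPL21, MRPL22, MRPL30, MRPL35, MRPL37, MRPL41, MRPL52, MRPL54, MRPL58, MRPS2, MRPS9 and MRPS33. Of all genes, 4.87% did so, and all of these comparisons use the CCNE1 libraries. Scaled to total counts, the value with shTMLHE 1 was positive in MRPL35, MRPL58 and MRPS9, and that with shTMLHE 2 in MRPL13, MRPL15, MRPL30, MRPL35 and MRPS9. The fall of MRPL35 with shTMLHE 2 was lost without the first shTMLHE 2 library (-0.20). Of the 16, 7 kept all 3 calls in the fit with the offset for GC content and length, namely MRPL11, MRPL13, MRPL15, MRPL21, MRPL37, MRPL54 and MRPS2. In that fit the CCNE1 rise no longer passed in MRPL22 (-0.05), MRPL30 (0.09), MRPL35 (0.16), MRPL52 (0.07), MRPS9 (0.12) and MRPS33 (0.21). The fall with shTMLHE 1 no longer passed in MRPL58 (0.03) and MRPS9 (-0.05), nor that with shTMLHE 2 in MRPL9 (-0.11) and MRPL41 (-0.06). The CCNE1 rises of MRPL9, MRPL11 and MRPS9, at 0.20, 0.12 and 0.20, were lost in the fit of the compared groups alone (0.17, 0.09 and 0.17) and in some fits with a library left out. In 11 genes a fall with CCNE1 met falls with both hairpins (7.48% of all genes), and in MRPL1 and MRPL42 a rise with CCNE1 met rises with both (9.8% of all genes). None of the 78 was called lower with CCNE1 and higher with both hairpins (2.5% of all genes). In the CCNE1 comparison 28 of the 55 genes that fell with both hairpins did not pass. Among all genes tested, 3636 fell with both hairpins, and 1736 of these did not pass there (11.3% of all genes tested).

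By CPM per kilobase over all libraries the highest genes were MRPS34, MRPL37, MRPL28, MRPL14 and MRPL41. MRPS34, which helps to keep the small subunit RNA stable, stood at 111 CPM per kilobase with shTMLHE 1 and 74.4 with shTMLHE 2, against 213 in CCNE1 and 210 in control libraries. MRPL37 stood at 108 and 75.6, against 182 in CCNE1 and 163 in control libraries. All 5 fell with both hairpins, but with the offset for GC content and length MRPS34 was at -0.26 and -0.12 and MRPL41 did not pass with shTMLHE 2. The lowest were MRPS24, MRPL38, MRPL42, MRPL46 and MRPL53, between 0.585 and 1.58 CPM per kilobase. The deposited length was 16393 bases for MRPL42 and 6432 for MRPL46, where the median of the 78 genes was 2539. A long deposited length lowers the value per kilobase, and MRPL42 averaged from 10.4 CPM in control to 28.2 CPM in shTMLHE 2 libraries. MRPS24 overlaps the readthrough gene URGCP-MRPS24, and reads of the 2 may have been split, so its level is uncertain. Its fall with shTMLHE 2 (-1.12, edgeR adjusted p = 0.0197) was lost without the first CCNE1 library (-0.77) or without the third shTMLHE 2 library (-0.88).

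The fold changes went with the GC content of the transcripts, in these genes and in all others. Across the 78 genes Spearman's rho between GC content and log2 fold change was -0.57 with shTMLHE 1 and -0.78 with shTMLHE 2. Across all genes tested it was -0.37 and -0.64. For CCNE1 over control it was -0.41 across the 78 genes and -0.38 across all genes tested. Genes are not independent replicates, and no p is given. When the members were split by GC content into 3 parts of 26, the most AT-rich part, from 33.5% to 44.1% GC, had a median of -0.19 with shTMLHE 1 and 0.13 with shTMLHE 2. Other genes in that range had medians of 0.39 and 0.87. The middle part had medians of -0.59 and -0.82, where other genes had 0.06 and 0.14. The most GC-rich part had medians of -0.80 and -1.34, where other genes had -0.23 and -0.76. In each of the 3 parts the members' median lay below that of other genes with both hairpins. With the offset that removes the trend with GC content and length in each library, 57 genes fell with each hairpin, where 32.9% of all genes did with shTMLHE 1 and 35.8% with shTMLHE 2. In that fit 1 gene rose with shTMLHE 1 and 5 with shTMLHE 2, where 22.9% and 26.9% of all genes did. Of the 78 genes 51 fell with both hairpins, where 24.6% of all genes did, and 41 of these were among the 55 counted without it. Their medians were then -0.47 and -0.60.

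**Figure D5:**
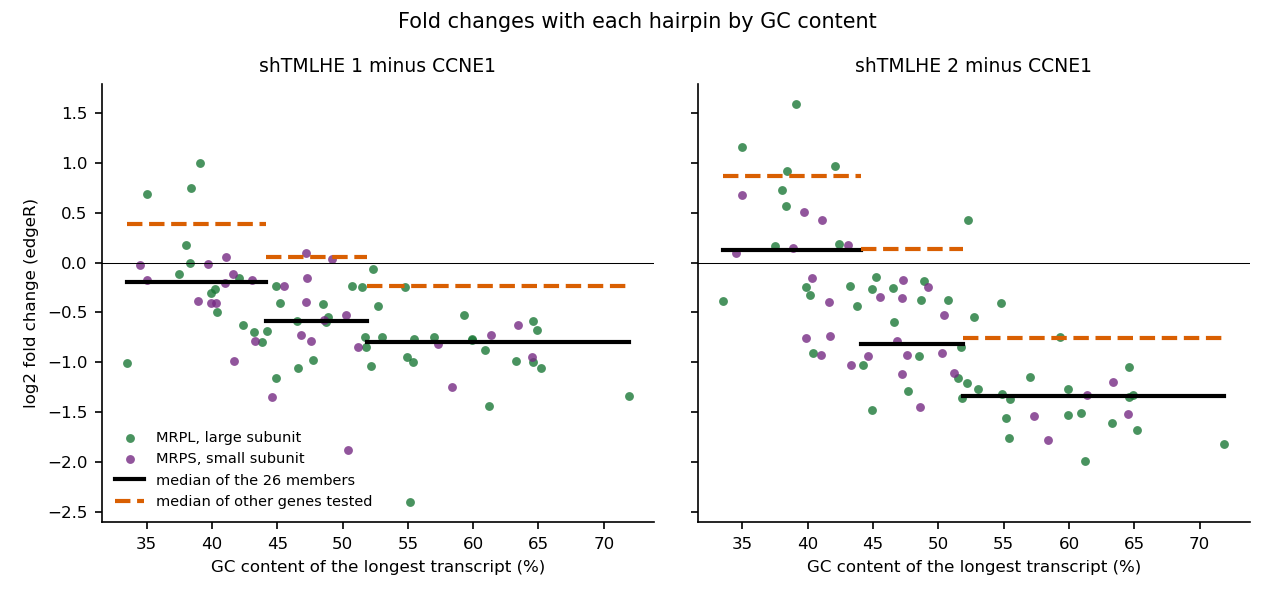
Log2 fold change against CCNE1 libraries by the GC content of the longest transcript, with shTMLHE 1 left and shTMLHE 2 right. Points are the 78 genes, black bars the medians of 26 members in each of 3 parts by GC content, and dashed bars the medians of other genes in the same range. The black bar lies below the dashed bar in all 6 places, and both fall toward high GC content.

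The promoters of these genes carry motifs known from nuclear genes for mitochondrial proteins. RefSeq windows on GRCh38.p14, from 250 bases before to 50 bases after the gene start, were at hand for 70 of the 78 genes. The windows of MRPL2, MRPL10, MRPL13, MRPL15, MRPL21, MRPL23, MRPL35 and MRPS28 were not analysed here. Exact matches on either strand were counted for 3 motifs, GCATGCGC for NRF1, CCGGAAG for ETS factors such as GABPA, and AAGATGG for YY1. The last 3 letters of the ETS motif are the first 3 of the YY1 motif, but 0 of the 70 windows held the joined run CCGGAAGATGG, against 0.0379% of all promoters. The ETS motif was in 29 of 70 windows (41.4%), against 14.2% of 15843 promoters of protein-coding genes. The YY1 motif was in 23 windows (32.9%), against 6.4%. The NRF1 motif was in 6 windows (8.57%), against 4.26%. At least 1 of them was in 44 windows (62.9%), against 22.3%. In 16 windows (22.9%) the YY1 motif began after the gene start, against 3.06% of all promoters. The 48 genes with a window that fell with both hairpins held the ETS motif in 20 cases (41.7%) and the YY1 motif in 14 cases (29.2%).

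These 6 windows are shown, with motif matches in capitals, 5′ to 3′ on the strand of the gene. MRPL52, which holds all 3 motifs, MRPS34, the gene with the highest level per kilobase, MRPS12 and MRPL34 fell with both hairpins, and MRPL50 and MRPL1 rose. They lie at chr14:22829637-22829936 (plus strand), chr16:1773085-1773384 (minus), chr19:38930694-38930993 (plus), chr19:17292323-17292622 (plus), chr9:101398569-101398868 (minus) and chr4:77862580-77862879 (plus).
MRPL52: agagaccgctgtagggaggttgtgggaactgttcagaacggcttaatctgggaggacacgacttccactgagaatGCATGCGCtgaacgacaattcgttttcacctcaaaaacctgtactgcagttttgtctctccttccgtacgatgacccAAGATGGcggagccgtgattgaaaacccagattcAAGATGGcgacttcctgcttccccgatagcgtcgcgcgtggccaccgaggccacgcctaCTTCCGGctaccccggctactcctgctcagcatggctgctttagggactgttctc
MRPS34: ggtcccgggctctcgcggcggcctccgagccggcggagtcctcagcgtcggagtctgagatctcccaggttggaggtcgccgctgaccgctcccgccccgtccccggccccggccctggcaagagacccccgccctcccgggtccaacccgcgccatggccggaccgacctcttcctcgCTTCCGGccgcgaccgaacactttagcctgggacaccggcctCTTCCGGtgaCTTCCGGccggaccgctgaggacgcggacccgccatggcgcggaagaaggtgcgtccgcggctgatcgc
MRPS12: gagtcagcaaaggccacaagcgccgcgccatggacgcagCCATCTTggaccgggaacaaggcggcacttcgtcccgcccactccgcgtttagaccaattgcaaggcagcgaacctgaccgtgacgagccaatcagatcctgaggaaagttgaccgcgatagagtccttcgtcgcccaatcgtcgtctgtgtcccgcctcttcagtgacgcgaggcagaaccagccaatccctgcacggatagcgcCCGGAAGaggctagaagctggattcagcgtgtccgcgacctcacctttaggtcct
MRPL34: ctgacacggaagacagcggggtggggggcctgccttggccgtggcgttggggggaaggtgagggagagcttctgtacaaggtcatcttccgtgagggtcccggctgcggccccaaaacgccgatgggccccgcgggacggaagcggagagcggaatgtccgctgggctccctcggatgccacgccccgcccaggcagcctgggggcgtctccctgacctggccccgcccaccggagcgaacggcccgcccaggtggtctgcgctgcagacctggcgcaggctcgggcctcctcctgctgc
MRPL50: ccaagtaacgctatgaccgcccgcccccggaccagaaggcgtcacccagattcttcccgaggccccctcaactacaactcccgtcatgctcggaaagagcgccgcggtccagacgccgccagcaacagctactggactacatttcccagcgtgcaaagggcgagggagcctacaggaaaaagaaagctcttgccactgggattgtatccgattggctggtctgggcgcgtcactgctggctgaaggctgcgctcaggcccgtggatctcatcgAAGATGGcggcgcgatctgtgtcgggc
MRPL1: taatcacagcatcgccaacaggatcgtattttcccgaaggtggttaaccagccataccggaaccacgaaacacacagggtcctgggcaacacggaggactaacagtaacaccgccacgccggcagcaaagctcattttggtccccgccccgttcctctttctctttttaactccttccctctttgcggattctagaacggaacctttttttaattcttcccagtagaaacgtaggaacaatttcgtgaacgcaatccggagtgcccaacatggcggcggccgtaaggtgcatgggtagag
MRPL34, the gene that fell furthest with shTMLHE 1, and MRPL1, the gene that rose furthest, held none of the 3 motifs in these windows, which says only that these letters are not there. The YY1 match of MRPL50 lies after its gene start, that of MRPS12 before it.

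The 78 genes lie on 21 chromosomes, with the most, 8 each, on chromosomes 1, 2 and 17. Among those described most fully are, on GRCh38 as deposited, MRPL34 (chr19:17292609-17306843, plus strand), MRPS7 (chr17:75261674-75266373, plus strand), MRPL3 (chr3:131462212-131502983, minus strand) and MRPL1 (chr4:77862520-77952790, plus strand). Many of the 78 share a start region with a gene on the other strand. In GENCODE 29, 29 of the 78 (37.2%) had a protein-coding gene starting on the opposite strand within 1000 bases, against 17% of 13119 tested protein-coding genes. Among 23 such pairs with a tested partner in which the member fell with both hairpins, the partner fell with both in 5 and rose with both in 3. Of all genes 23.6% fell and 23.2% rose with both, so that the partners' falls are near the share of all genes. NDUFS6, a complex I subunit that starts 34 bases from MRPL36, fell (-0.88 and -1.24) with shTMLHE 1 and shTMLHE 2. TCP1, a chaperonin subunit that starts 63 bases from MRPL18, rose by 0.20 and 0.22, and MRPL18 was among the 55 genes that fell with both. MRPL46 and MRPS11 start 34 bases apart from each other. MRPS11 was among those 55 too, and MRPL46 had values of -0.26 and -0.32 that did not pass.

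The 5 mitochondrial ribosome proteins without an MRP symbol varied. GADD45GIP1, a large subunit protein at the peptide exit, fell (-1.44 and -2.40) with shTMLHE 1 and shTMLHE 2, and AURKAIP1, a small subunit protein, fell (-0.88 and -1.36), though the offset for GC content and length turned its value with shTMLHE 2 to 0.22. DAP3 fell (-0.41 and -0.52) and CHCHD1 (-0.64 and -0.44), both of them small subunit proteins. PTCD3, also of the small subunit, had 0.07 with shTMLHE 1, which did not pass, and rose by 0.39 with shTMLHE 2, which the offset turned to -0.39.

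The 2 ribosomal RNAs of the mitochondrial ribosome went the other way in the counts. MT-RNR1, of the small subunit, had 1641, 1536 and 1599 CPM with shTMLHE 1 and 1406, 1312 and 1423 CPM with shTMLHE 2, against 1076, 1066 and 1095 CPM in CCNE1 and 1838, 1782 and 1919 CPM in control libraries. The hairpin libraries lay between CCNE1 and control without overlap. Its log2 fold change was 0.56 with shTMLHE 1, 0.36 with shTMLHE 2 and -0.77 for CCNE1 over control, and that of MT-RNR2, of the large subunit, was 0.53, 0.20 and -0.93. The value of MT-RNR2 with shTMLHE 2 was -0.10 with the offset for GC content and length. How ribosomal RNA was removed or poly(A) RNA selected is not given in the sources used here, and levels of these 2 RNAs depend on it. Of the 13 mitochondrial messenger RNAs, which this ribosome translates, 10 rose (76.9%) and 3 fell (23.1%) with shTMLHE 1. With shTMLHE 2, 3 rose (23.1%) and 8 fell (61.5%), or 8 (61.5%) and 4 (30.8%) when scaled to total counts. Of all genes 30.4% rose and 30.3% fell with shTMLHE 1, and 36.8% and 36.2% with shTMLHE 2. On total counts 54.1% of all genes rose and 22.4% fell with shTMLHE 2. The median of the 13 was 0.77 with shTMLHE 1 and -0.13 with shTMLHE 2. All 13 were higher with shTMLHE 1 than with shTMLHE 2, where 31.3% of all genes were. After TMM scaling MT-CO1, a complex IV subunit, rose by 0.79 with shTMLHE 1 and fell by 0.52 with shTMLHE 2. On total counts the median of the 13 was 1.16 with shTMLHE 1 and 0.40 with shTMLHE 2, where those of all genes were 0.43 and 0.56.

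Other genes of mitochondrial translation gave counts that varied with the list and the scaling. Of all genes, 30.3% fell and 30.4% rose with shTMLHE 1, and 36.2% fell and 36.8% rose with shTMLHE 2. Of 26 genes for assembly of the ribosome and modification of its RNA, 14 fell and 1 rose with shTMLHE 1 (median -0.34), and 15 fell and 5 rose with shTMLHE 2 (median -0.58). RPUSD3, a pseudouridine synthase-like protein, fell (-0.80 and -1.56), and METTL17, an assembly factor (-0.93 and -1.08). Of 15 translation factors 7 fell and 1 rose with shTMLHE 1, and 4 fell and 4 rose with shTMLHE 2, or 26.7% each way. TUFM, the elongation factor that brings transfer RNA to the ribosome, fell (-0.82 and -1.40), and OXA1L, which inserts new chains into the inner membrane (-1.01 and -1.61). Of 20 genes for charging transfer RNA 11 fell and 1 rose with shTMLHE 1, and 9 fell and 3 rose with shTMLHE 2. Scaled to total counts, the counts moved towards rises as those of all genes did, with 6 falls and 9 rises in the first list, 4 and 5 in the second and 3 and 9 in the third with shTMLHE 1, and 10 and 9, 3 and 10, and 5 and 13 with shTMLHE 2. On that scale 16.2% of all genes fell and 51% rose with shTMLHE 1, and 22.4% fell and 54.1% rose with shTMLHE 2. With the offset for GC content and length the same lists had 12, 9 and 14 falls and 2, 2 and 1 rises with shTMLHE 1. With shTMLHE 2 they had 15, 7 and 10 falls and 5, 1 and 2 rises. In that fit 32.9% of all genes fell and 22.9% rose with shTMLHE 1, and 35.8% fell and 26.9% rose with shTMLHE 2. Among 8 tested regulators of nuclear genes for mitochondria, 3 rose (37.5%) and 4 fell (50%) with shTMLHE 1. With shTMLHE 2, 4 rose and 4 fell (50% each way). With shTMLHE 1 and shTMLHE 2, GABPA rose by 0.98 and 1.91, GABPB1 by 0.59 and 1.02 and PPARGC1B by 0.47 and 0.52. The values of GABPB1 and PPARGC1B did not pass with the offset for GC content and length. ESRRA fell (-1.15 and -1.37), and PPRC1, a coactivator, fell (-0.72 and -0.18). MYC, which drives ribosome genes, fell (-0.38 and -0.41), and YY1 fell with shTMLHE 1 (-0.30) and rose with shTMLHE 2 (0.39). With the offset, GABPA had 0.23, which did not pass, and 0.58, ESRRA -0.69 and -0.22, PPRC1 -0.78 and 0.14, MYC -0.28 and -0.01, and YY1 -0.63 and 0.01, where the values of MYC and YY1 with shTMLHE 2 did not pass and that of PPRC1 turned round. NRF1, given for its motif, had -0.17, which did not pass, with shTMLHE 1 (-0.28 and called with the offset), and fell with shTMLHE 2 (-0.57).

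Of 81 tested nuclear genes for respiratory chain subunits 73 (90.1%) fell with shTMLHE 1 (median -0.84) and 67 (82.7%) with shTMLHE 2 (median -1.04). Of 85 tested cytosolic ribosomal protein genes 81 (95.3%) and 75 (88.2%) fell (medians -1.28 and -1.24). Of all genes 30.3% fell with shTMLHE 1 and 36.2% with shTMLHE 2. Whether these lists differ from the mitochondrial ribosomal protein genes was not tested.

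Among the genes outside the list whose levels followed the 78 genes most closely over the 12 libraries were CD151, PTMA, RPL12 and ZNHIT1. Pearson's r with the mean log2 level of the 78 genes, on log2(CPM + 0.5) and given as a description of libraries that fall into 4 groups, was between 0.997 and 0.999. CD151, a tetraspanin of the cell surface, had 238 ± 11 CPM with shTMLHE 1 and 218 ± 3.61 CPM with shTMLHE 2, against 522 ± 6.07 CPM in CCNE1 and 459 ± 12.3 CPM in control libraries (SD, n = 3 each). RPL12 is a protein of the cytosolic ribosome.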

How the data were processed

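RNA of 12 Ovcar8 libraries was prepared with the NEBNext Ultra 2 RNA kit, per the labels' protocols. The deposited table holds whole-number read counts per gene, and a deposited FPKM table holds the same libraries. The deposited gene length, a number of bases without a usual unit word (other), equals the exon union of GENCODE 29 in all 58735 genes. STAR 2.6.1, DESeq2 2 and the GRCh38 build are named in the submitters' processing notes, and no source used here names the read counter or its strand setting, so reads of overlapping genes may be split or lost. The authors' FPKM values were used only as an alternative.

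Counts were tested with edgeR 4.0.16 in R 4.3.3 (quasi-likelihood, robust, TMM scaling, filterByExpr, 1 mean per group over all 12 libraries, Benjamini-Hochberg over 15378 genes, adjusted p under 0.05), after the code was tested on simulated data. The SE is the size of the log2 fold change divided by the square root of F. Large minus small subunit medians carry no test. Alternatives were DESeq2 1.42.0, limma 3.58.1, other scalings and filters, a spline offset for GC content and length of the longest transcript, the replicate number as a block, and each library left out.

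Members and lists were chosen with earlier results of these data known. Genes were named by a rule: per comparison the 8 largest rises and 8 largest falls among called members whose libraries do not overlap, members opposite between comparisons, the 5 highest and 5 lowest by CPM per kilobase, those whose symbol does not match their subunit, genes among the first 3 of another list by p in a comparison, and the 5 genes most like the members, of which 1 is not reported here. NRF1, GABPB1, PPARGC1B and a few partners of shared start regions were named outside it and chosen after their values were seen. Replicates of a group differed by more than counting noise, so that none counts as a duplicate.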

Additional observations from a re-analysis of the deposited data

Results flagged for a closer look

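MRPL3 was called lower with shTMLHE 1 and higher with shTMLHE 2 against the same CCNE1 libraries, and the difference between the hairpins, tested directly with edgeR, was -0.82 on the log2 scale (SE 0.05, adjusted p = 4.42e-16). It was lower in 3 of 3 libraries with shTMLHE 1 than in any library with shTMLHE 2. With the offset for GC content and length the difference was -0.44.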

How the results depend on the processing

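Of 142 called values of named members, 0 reversed and 15 lost their call when a library was left out. DESeq2 and limma-voom lost 1 each, the fit of the compared groups alone 6, no filter 4, log2(FPKM + 0.1) 5, log2(FPKM + 1) 4, adjusted p under 0.01 13, and DESeq2's size factors and the CPM minimum 0. Total counts lost 11 and reversed 11, and the GC and length offset lost 22 and reversed 14. Reversed means a change of sign, whether or not the new value passed. Of those named values reversed by the offset, only MRPL19, MRPL3, MRPL42 and MRPS36, all with shTMLHE 2, were called in the new direction. Over all 78 genes, 4 called higher and 2 called lower with shTMLHE 2 were called the opposite way with the offset. The causes were not tested.

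With each library left out, large minus small medians ranged from -0.01 to 0.07 for CCNE1 minus control, from -0.28 to -0.19 for shTMLHE 1 minus CCNE1, from -0.14 to -0.04 for shTMLHE 2 minus CCNE1 and from -0.03 to 0.06 between the hairpins. Rises numbered 22 to 28, 3 to 3, 10 to 11 and 34 to 39, and falls 9 to 12, 56 to 60, 57 to 59 and 20 to 25 in the same order.

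With the offset, large minus small was 0.11, 0.15, 0.31 and -0.20 in that order, rises were 1 with shTMLHE 1 and 5 with shTMLHE 2, and falls between the hairpins were 11. With total counts, rises were 14 with shTMLHE 1 and 26 with shTMLHE 2. By the subunit that holds the protein, large minus small was -0.21 with shTMLHE 1 and -0.02 between the hairpins, and over members with less than 25% shared exon bases, chosen after seeing the data, -0.16 and -0.07. With shTMLHE 2 it was -0.03 by limma-voom and -0.01 on log2(FPKM + 0.1).

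Reversed by the offset were, with shTMLHE 2, MRPL19 (-0.43), MRPL3 (-0.16), MRPL38 (0.25), MRPL4 (0.02), MRPL42 (-0.60), MRPL50 (-0.14), MRPS31 (-0.06) and MRPS36 (-0.33), with shTMLHE 1, MRPL42 (-0.22), MRPL50 (-0.01) and MRPL58 (0.03), with CCNE1, MRPL22 (-0.05) and MRPS30 (-0.15), and between the hairpins, MRPL4 (-0.10). Reversed by total counts were, with shTMLHE 2, MRPL13 (0.15), MRPL15 (0.28), MRPL30 (0.30), MRPL33 (0.09), MRPL35 (0.29) and MRPS9 (0.19), and with shTMLHE 1, MRPL35 (0.10), MRPL58 (0.15), MRPS18C (0.02), MRPS6 (0.19) and MRPS9 (0.17).

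The replicate numbers did not pair the libraries: over 18 same-number pairs the correlation of deviations lay between -0.047 and 0.021, and in 10 of 36 comparisons of a library with another group the same number correlated best. The replicate block lost the call of MRPS18C with shTMLHE 1 (-0.38, edgeR adjusted p = 0.0579) and no other named one. The offset with the replicate block gave 0.11, 0.15, 0.31 and -0.20 for large minus small, 1 and 5 rises and 11 falls, and for the reversed members MRPL38 0.29, MRPL50 -0.13, MRPS30 -0.14 and MRPS36 -0.32 in place of the values above, with the others as given.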

Other observations

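Against CCNE1 libraries, genes for transcription of mitochondrial DNA and processing of its RNA were called in shares not far from those of all genes. Of 19 tested, 7 rose and 6 fell with shTMLHE 1 and 8 rose and 5 fell with shTMLHE 2, against CCNE1 libraries by edgeR. These are 36.8% and 31.6% with shTMLHE 1, where 30.4% of all genes rose and 30.3% fell, and 42.1% and 26.3% with shTMLHE 2, where 36.8% rose and 36.2% fell. In the other comparisons the shares lay further apart. For CCNE1 over control 47.4% rose and 26.3% fell, where 25.1% and 19.1% of all genes did. Against shTMLHE 2, 15.8% were higher and 57.9% lower with shTMLHE 1, where 31.3% and 29% of all genes were. TFAM, which packages mitochondrial DNA and starts its transcription, rose by 0.54 and 1.38 on the log2 scale with shTMLHE 1 and shTMLHE 2, and LRPPRC, which keeps mitochondrial messenger RNAs stable, by 0.37 and 0.77. In the fit with the offset for GC content and length TFAM had -0.08, which did not pass, and 0.22, and LRPPRC had -0.07 and -0.06, neither of which passed. POLRMT, the mitochondrial RNA polymerase, fell (-0.76 and -1.95), also in the offset fit (-0.45 and -0.84). In that fit 1 of the 19 rose (5.26%) and 7 fell (36.8%) with shTMLHE 1, where 22.9% and 32.9% of all genes did. With shTMLHE 2, 4 rose (21.1%) and 6 fell (31.6%), where 26.9% and 35.8% of all genes did. Between the hairpins 15.8% were higher and 31.6% lower with shTMLHE 1, where 25% and 23.2% of all genes were. For CCNE1 over control the median of the 19 was 0.25 without the offset, where that of all genes was 0.05. With the offset the median of the 19 was 0.03, where that of all genes was 0.01.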
